A study of Mus musculus with 6 samples.

Results

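The cell cycle genes examined here were 40 genes: 8 G1 cyclins and cyclin-dependent kinases (CDKs), 3 CDK inhibitors, 3 pocket proteins, 8 E2F transcription factors, 3 S phase genes, 14 mitotic genes, and the homeobox gene Meis1. They were taken by gene symbol from the gene count table of the series, which lists 56748 genes, and each symbol matched a row. Hearts were from male Pontin cTG mice, 10 weeks old at the start, and their non-transgenic wild-type (WT) littermates on a C57Bl/6 background, with 3 libraries per group. The transgene is a flag-tagged human Pontin cDNA behind the mouse α-myosin heavy chain promoter, which is active in cardiomyocytes. Both groups received angiotensin II, a hormone that raises blood pressure and drives cardiac hypertrophy, at 1.5 mg/kg body weight per day for 14 days from a mini-osmotic pump, and no untreated heart was analysed here. The RNA came from whole heart tissue, so all cell types of the heart contributed, and fewer cells of a type and less RNA per cell cannot be told apart. The comparison addresses whether hearts with added Pontin, an AAA+ ATPase encoded by Ruvbl1 in the mouse, differ in cell cycle genes under the same hypertrophic stimulus.

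The cell cycle is driven by CDKs that are switched on by cyclins. In G1, D-type cyclins with CDK4 or CDK6 and E-type cyclins with CDK2 phosphorylate the pocket proteins (Rb1, Rbl1, Rbl2), which frees activating E2F factors to induce the genes of S phase. Genes needed for G2 and mitosis come later, controlled by B-MYB, FOXM1 and the DREAM complex through CCAAT boxes and a TTTGAA element, the cell cycle genes homology region. Adult cardiomyocytes rarely divide, and mitotic transcripts of whole heart tissue are shared with dividing fibroblasts, endothelial cells and leukocytes.

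The letters of these elements were read in the RefSeq promoter windows (assembly GRCm38.p6), which run from 250 bases before to 50 bases after each start and were found for 31 of the 40 genes, where a gene with several windows held a match if any of them did. Of the 11 mitotic genes with a window, 8 held TTTGAA and 9 held CCAAT on either strand, against 20.2% and 41.1% of the 27025 genes with a window. Of the 5 G1 cyclins and CDKs with a window, 0 held TTTGAA and 2 held CCAAT. The elements were not limited to mitotic genes, since CCAAT was in 3 of 3 CDK inhibitors, 3 of 3 S phase genes and 4 of 6 E2F genes with a window, and TTTGAA was in 3 of 6 E2F genes, 1 of 3 S phase genes and 1 of 2 pocket proteins. The E2F letters searched, on both strands, were TTTCCCGC or TTTCGCGC or TTTGCCGC or TTTGGCGC. Among genes with a window, they were present in 1 of 11 mitotic, 1 of 3 S phase and 3 of 6 E2F genes. They were also in 1 of 5 G1 cyclins and CDKs, 1 of 2 pocket proteins and 0 of 3 CDK inhibitors. Of all 27025 genes with a window, 2.6% held them. The match is a description of the letters and no evidence of binding. The 250 bases before the start are given, on the gene's strand, for 4 mitotic genes that carry the result described further on and for the S phase gene Mcm5 as a contrast. Capitals mark the CCAAT boxes, the homology region elements (TTTGAA) and the E2F letters, in either orientation.
Mki67, chr7:135716380-135716629, minus strand: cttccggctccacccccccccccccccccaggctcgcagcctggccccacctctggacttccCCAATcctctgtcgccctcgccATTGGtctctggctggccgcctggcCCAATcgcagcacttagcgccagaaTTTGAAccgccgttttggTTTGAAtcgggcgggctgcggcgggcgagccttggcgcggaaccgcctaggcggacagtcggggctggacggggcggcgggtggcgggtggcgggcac
Top2a, chr11:99024190-99024439, minus strand: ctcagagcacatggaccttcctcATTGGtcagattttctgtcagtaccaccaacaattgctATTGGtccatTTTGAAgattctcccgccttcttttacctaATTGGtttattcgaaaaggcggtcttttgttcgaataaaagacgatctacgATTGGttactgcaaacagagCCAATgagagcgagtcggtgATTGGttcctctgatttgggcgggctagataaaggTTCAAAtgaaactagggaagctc
Cdk1, chr10:69352913-69353162, minus strand: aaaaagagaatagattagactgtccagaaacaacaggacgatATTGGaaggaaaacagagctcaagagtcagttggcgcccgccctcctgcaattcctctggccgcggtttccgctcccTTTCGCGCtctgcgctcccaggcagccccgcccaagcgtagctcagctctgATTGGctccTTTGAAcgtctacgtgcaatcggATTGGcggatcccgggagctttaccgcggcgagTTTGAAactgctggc
Ccnb2, chr9:70421555-70421804, minus strand: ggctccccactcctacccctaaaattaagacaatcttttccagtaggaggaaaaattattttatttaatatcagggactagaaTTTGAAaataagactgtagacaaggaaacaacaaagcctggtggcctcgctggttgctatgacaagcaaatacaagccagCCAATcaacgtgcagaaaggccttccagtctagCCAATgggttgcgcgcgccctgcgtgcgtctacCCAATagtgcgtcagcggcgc
Mcm5, chr8:75109259-75109508, plus strand: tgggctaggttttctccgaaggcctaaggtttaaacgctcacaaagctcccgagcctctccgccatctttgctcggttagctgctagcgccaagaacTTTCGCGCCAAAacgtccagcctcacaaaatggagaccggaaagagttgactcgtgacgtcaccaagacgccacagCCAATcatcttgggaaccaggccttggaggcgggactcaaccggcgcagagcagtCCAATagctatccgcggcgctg
In the printed stretches, Mki67 held 3 CCAAT and 2 TTTGAA matches, Top2a held 6 and 2, Cdk1 held 3 and 2, and Ccnb2 held 3 and 1. The Mcm5 stretch held 2 CCAAT matches, 0 TTTGAA matches and 2 E2F matches that overlap each other on opposite strands. Cdk1 was the mitotic gene with E2F letters. The S phase gene with E2F letters was Mcm5, while Mcm2 held a TTTGAA match. The last bases of the promoter window were found in a transcript of the gene for the 4 mitotic genes but not for Mcm5, so the Mcm5 start is less certain.

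The libraries held 12436822 to 13194038 counts in WT and 14584102 to 16888124 in Pontin cTG. Between 23.76% and 26.71% of counts fell in mitochondrial genes, with overlapping ranges in the groups. Pontin cTG replicate 2 stood apart, at 50.85 on a first principal component that held 48.61% of the variance, with the other 5 libraries between -23.06 and 16.16. Summed cardiomyocyte markers ran from 542800 to 649000 normalised counts (counts scaled by TMM factors to a common library size), with all 8 of them detected in every library. Mouse Ruvbl1 was at 215.8, 221.0 and 216.9 normalised counts in WT and at 249.9, 250.0 and 240.0 in Pontin cTG. These values did not overlap but did not pass the test (log2 fold change of Pontin cTG over WT 0.18, standard error 0.12, unadjusted p = 0.177 in edgeR). The transgene carries the human sequence, whose reads may be lost when mouse genes are counted, and so the mouse value is no check of it.

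No cell cycle gene passed the test between Pontin cTG and WT hearts. All 40 genes passed the filter on low counts, and edgeR's quasi-likelihood test called 0 of them at an adjusted p under 0.05, as it called 0 of 13888 genes tested (0%). At an unadjusted p under 0.05 there was 1 of 40 genes (2.5%), the same order as the 2.05% of all genes tested. DESeq2 also gave 1 gene at that level and limma-voom with quality weights gave 4, and neither called any of the 40 after adjustment. For DESeq2 and limma-voom the share of all genes at an unadjusted p under 0.05 was not counted, so their counts have no background beside them. The adjusted p in edgeR was 0.999 for each of the 40 genes. WT and Pontin cTG ranges were disjoint for 3 of the 40 genes (7.5%), against 8.33% of all genes. The fold change was positive for 20 genes and negative for 20, with a median log2 fold change of 0.0060 against 0.0013 over all genes. This even split depended on the libraries, since the number of positive genes fell to 12 when Pontin cTG replicate 2 was left out and to 13 for WT replicate 1, and rose to 28 for WT replicate 2 and to 26 for Pontin cTG replicate 3. On simulated counts of the same depth, edgeR called 58 of 100 genes changed 2-fold and 91 of 100 changed 4-fold. Differences of 2-fold or less could therefore be missed. The changed genes were drawn from all genes tested. Recovery was not measured for the mitotic genes, whose median standard error was 0.60 against 0.20 over all genes.

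**Figure D1:**
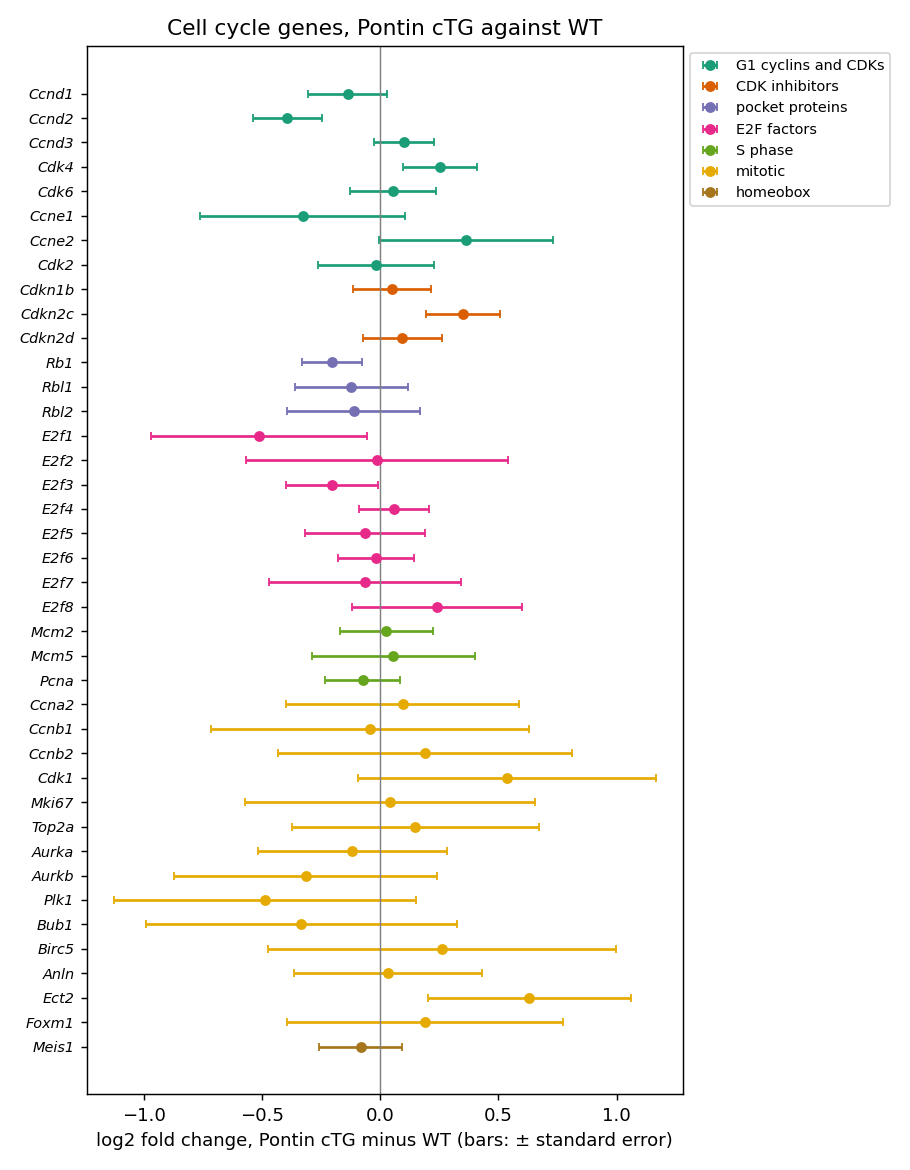
Log2 fold change, Pontin cTG minus WT, of the 40 genes (points) with its standard error (bars), coloured by role. The 14 mitotic genes have the widest bars as a group, with a median standard error of 0.60, and no gene passed the adjusted threshold.

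The G1 cyclins and CDKs spanned a wide range of levels. As counts per length and library size (RPKM), Ccnd1 was at 15.4, Ccnd2 at 14.3 and Cdk4 at 10.7 over all 6 libraries, while Ccne1 and Ccne2, the E-type cyclins, were at 0.498 and 0.664. Ccnd2, a D-type cyclin that partners CDK4 and CDK6, was at 2462, 2007 and 1991 normalised counts in WT hearts and at 1546, 1786 and 1590 in Pontin cTG hearts. The lowest WT heart was above the highest Pontin cTG heart. Its log2 fold change was -0.39 (standard error 0.14), the smallest unadjusted p of the 40 genes (0.0242), with the smallest exact permutation p that 3 against 3 allows (0.1, two-sided). Without any 1 library the value ran from -0.46 to -0.28 and kept its sign, and it was -0.46 without Pontin cTG replicate 2.

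Cdk4, the kinase partner of the D-type cyclins, was at 405.3, 507.0 and 422.6 normalised counts in WT and at 476.5, 630.2 and 484.2 in Pontin cTG, and the groups overlapped. Its log2 fold change was 0.25 (standard error 0.16, unadjusted p = 0.140 in edgeR). Cdk4 overlaps Tspan31 on the opposite strand, Ccnd3 overlaps Bysl, Ccnd1 overlaps LTO1 and Ccne2 overlaps Ints8, each with 50 or more counts on average. The library kit named in the study does not mark strand, so reads in the overlaps cannot be told apart.

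Ccnd1, which couples growth signals to G1, was at 1114, 876.1 and 1214 in WT and at 1061, 1031 and 821.2 in Pontin cTG. Ccnd3 was at 599.1, 591.2 and 633.8 against 710.8, 670.4 and 574.3. Cdk6 was at 188.3, 215.4 and 201.2 against 219.7, 249.2 and 159.4. For all 3 the ranges of the groups overlapped, and Pontin cTG replicate 3 was the lowest library.

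Cdk2, the partner of cyclin E and cyclin A, was at 126.6, 197.4 and 126.3 against 112.3, 185.8 and 146.4. Ccne1 was at 27.53, 23.56 and 11.18 in WT and at 20.5, 17.98 and 11.26 in Pontin cTG. Ccne2 was at 16.52, 37.02 and 32.42 against 40.03, 27.4 and 43.31. Ccne1 was about equally low in WT replicate 3 (10 deposited counts) and Pontin cTG replicate 3 (13 counts). Ccne2 was lowest in WT replicate 1 (15 counts). With so few counts the order of the libraries is uncertain for both E-type cyclins. Over the 8 G1 genes the fold change was positive for 4 and negative for 4, and the median was 0.02.

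The CDK inhibitors hold the kinases in check. Cdkn2c (p18), an inhibitor of CDK4 and CDK6, was at 135.5, 162.7 and 131.9 normalised counts in WT and at 201.1, 173.8 and 173.3 in Pontin cTG. The lowest Pontin cTG heart was above the highest WT heart. The log2 fold change was 0.35 (standard error 0.16, unadjusted p = 0.0526 in edgeR, exact permutation p = 0.1). Cdkn2d (p19) was at 168.5, 207.5 and 190.0 against 188.4, 240.6 and 175.0. Cdkn1b (p27), which binds CDK2 complexes, was at 453.7, 542.9 and 466.2 against 427.6, 466.6 and 618.5. Both of these overlapped between the groups, and the median over the 3 inhibitors was 0.09.

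The pocket proteins had negative fold changes in 3 of 3 genes, with a median of -0.12. Rb1, the retinoblastoma protein, was at 367.8, 422.9 and 373.4 in WT and at 363.2, 321.9 and 326.6 in Pontin cTG. The groups were separated by the narrow gap between 363.2 and 367.8, and the log2 fold change was -0.20 (standard error 0.13, unadjusted p = 0.143 in edgeR). Rb1 overlaps Lpar6 and Rcbtb2. Rbl1 (p107) was at 73.78, 93.1 and 59.25 against 68.34, 78.77 and 60.64, which overlapped.

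Rbl2 (p130), the pocket protein of quiescent cells and a part of DREAM, was at 626.6, 601.3 and 738.9 in WT and at 715.7, 327.1 and 777.9 in Pontin cTG. Replicate 2, the library that stood apart, held less Rbl2 than the rest, and the Rbl2 log2 fold change went from -0.11 to 0.19 without it. Rbl2 overlaps Aktip.

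**Figure D2:**
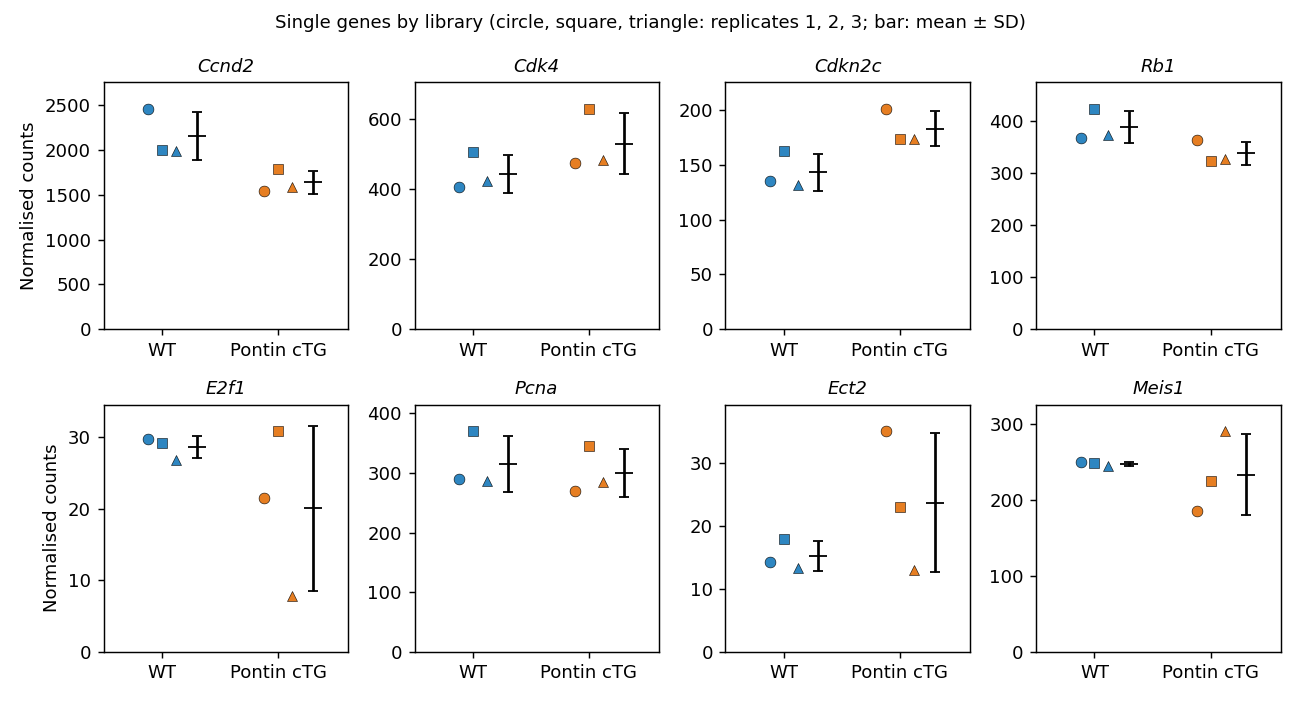
Normalised counts by library for 8 genes (circle, square and triangle for replicates 1, 2 and 3, black bars for mean ± SD, n = 3), each axis starting at 0. Ccnd2 and Rb1 were lower and Cdkn2c was higher in all Pontin cTG hearts than in all WT hearts, while the groups overlap in the other panels.

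Among the E2F factors, E2f6, a repressor that acts without pocket proteins, was the most abundant of all 40 genes per length (19.2 RPKM), and E2f4, a repressor with Rbl2 in DREAM, was at 10.2 RPKM. The activators E2f1 and E2f2 were at 0.55 and 0.157 RPKM, and E2f2 was the lowest of the 40. E2f1 was at 29.73, 29.17 and 26.83 normalised counts in WT and at 21.48, 30.82 and 7.796 in Pontin cTG. The WT libraries lay close together while the Pontin cTG libraries spanned a ratio of 3.95, and the log2 fold change was -0.51 (standard error 0.46, unadjusted p = 0.293 in edgeR). Without Pontin cTG replicate 3 it was -0.12.

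E2f3, the third activator, was at 229.1, 185.1 and 187.8 against 207.0, 131.9 and 184.5. E2f4 was at 362.3, 310.7 and 367.8 against 408.1, 306.5 and 369.0, and E2f6 was at 1549, 1491 and 1599 against 1712, 1195 and 1677. E2f2 was at 11.01, 13.46 and 7.825 against 19.53, 7.706 and 5.198. In Pontin cTG replicate 2, E2f3, E2f4 and E2f6 were the lowest of the 6 libraries, as were Rb1 and Rbl2, but that library was the lowest for 30.7% of all genes.

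E2f5, which also acts as a repressor and overlaps Rbis, was at 49.56, 66.18 and 44.71 against 43.94, 56.51 and 52.84. The atypical E2f7 and E2f8, repressors that are themselves induced in S phase, were low. E2f7 was at 26.43, 31.41 and 20.12 against 27.34, 34.25 and 12.99, and E2f8 was at 15.42, 14.58 and 12.3 against 14.65, 20.55 and 14.73. Of the 8 E2F genes, 2 had positive and 6 had negative fold changes, with a median of -0.04, and the groups overlapped in each.

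No S phase gene passed the test, and the groups overlapped in each. Pcna, the sliding clamp of DNA polymerase, was at 289.6, 370.2 and 286.2 in WT and at 269.5, 345.1 and 284.1 in Pontin cTG (log2 fold change -0.07, standard error 0.16, unadjusted p = 0.657 in edgeR). Mcm2, a subunit of the replicative helicase, was at 105.7, 114.4 and 101.7 against 109.3, 131.0 and 87.49. Mcm5, another subunit, was at 63.87, 96.47 and 76.01 against 68.34, 126.7 and 50.24. In both groups replicate 2 held the highest level of all 3 genes.

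The 14 mitotic genes varied far more from heart to heart than between groups. Summed over the 14 genes, normalised counts were 352.4, 803.2 and 543.2 in WT and 798.6, 821.1 and 181.0 in Pontin cTG. The highest library was 4.54 times the lowest, while the ratio was 1.29 for the sum of the G1 cyclins and CDKs and 1.43 for S phase. Summed over 31 other mitosis genes of a wider list described further on, the ratio was 1.41. A few abundant genes weigh on that sum, and Pttg1 alone held 904.4 of its 2205 normalised counts in Pontin cTG replicate 3. By gene, Pontin cTG replicate 3 and WT replicate 1 were the 2 lowest libraries for 20 of the 31 (64.5%), against 6.78% of all genes. This pair was chosen after its values were seen. For the 14 genes the group means were 566.3 ± 226 (SD, n = 3) and 600.3 ± 363 (SD, n = 3). Pontin cTG replicates 1 and 2 and WT replicate 2 formed the upper end, and Pontin cTG replicate 3 and WT replicate 1 the lower end, so both groups held hearts of each kind.

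Mki67, the proliferation marker Ki-67, was at 96.91, 237.8 and 145.3 normalised counts in WT and at 226.5, 234.6 and 33.78 in Pontin cTG. As deposited, Pontin cTG replicate 3 held 39 counts of Mki67 (95% exact Poisson interval 27.7 to 53.3) and replicate 2 held 274 (243 to 308), so counting error does not cover the gap. These intervals cover counting error only, since copies made by PCR are not separate molecules. Top2a, the topoisomerase that untangles chromosomes, was at 51.76, 139.1 and 101.7 against 128.9, 161.8 and 33.78, in the same order of libraries within each group as Mki67.

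Cdk1, the kinase of mitotic entry, was at 11.01, 32.53 and 25.71 against 45.89, 47.09 and 7.796. Its cyclins showed the same spread. Ccnb1 was at 14.32, 25.8 and 13.41 against 29.29, 20.55 and 2.599, Ccnb2 was at 14.32, 29.17 and 31.3 against 32.22, 47.09 and 6.064, and Ccna2 was at 33.04, 60.57 and 44.71 against 76.15, 55.66 and 16.46. In all 4 genes Pontin cTG replicate 3 was below every WT heart and the other two Pontin cTG hearts were above WT replicate 1. Ccna2 overlaps Exosc9, and Ccnb1 and Ccnb2 have processed pseudogenes, of which Ccnb2-ps held 14.8 counts on average.

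The mitotic kinases and checkpoint genes followed. Aurka, the centrosomal Aurora kinase, was at 17.62, 33.65 and 21.24 against 28.31, 24.83 and 13.86. Aurkb, the kinase of the chromosomal passenger complex, was at 16.52, 30.29 and 25.71 against 30.27, 23.12 and 5.198. Plk1, the polo-like kinase, was at 14.32, 15.7 and 17.89 against 12.69, 19.69 and 1.733. Each of these kinases was lowest in Pontin cTG replicate 3.

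Bub1, a spindle checkpoint kinase, was at 9.911, 42.63 and 12.3 against 20.5, 24.83 and 6.064. Birc5 (survivin), also of the passenger complex, was at 3.304, 28.04 and 10.06 against 21.48, 23.12 and 5.198, and was the mitotic gene that WT replicate 1 held at the lowest level. Foxm1, a transcription factor of G2 and M genes, was at 19.82, 35.9 and 35.77 against 49.79, 47.09 and 7.796. Foxm1 was lowest in Pontin cTG replicate 3, and Bub1 was too.

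Anln (anillin), a scaffold of the cleavage furrow, was at 35.24, 74.04 and 44.71 against 61.51, 68.5 and 27.72. Ect2, which activates RhoA for the furrow, was at 14.32, 17.95 and 13.41 against 35.15, 23.12 and 12.99. Ect2 had the largest fold change of the 40 genes in size (log2 fold change 0.63, standard error 0.43, unadjusted p = 0.175 in edgeR), but the Ect2 value was 0.26 when Pontin cTG replicate 1 was left out and 0.93 when Pontin cTG replicate 3 was. Pontin cTG replicates 1 and 2 were above all WT hearts for Ect2 and replicate 3 was below them, so the groups overlapped.

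**Figure D3:**
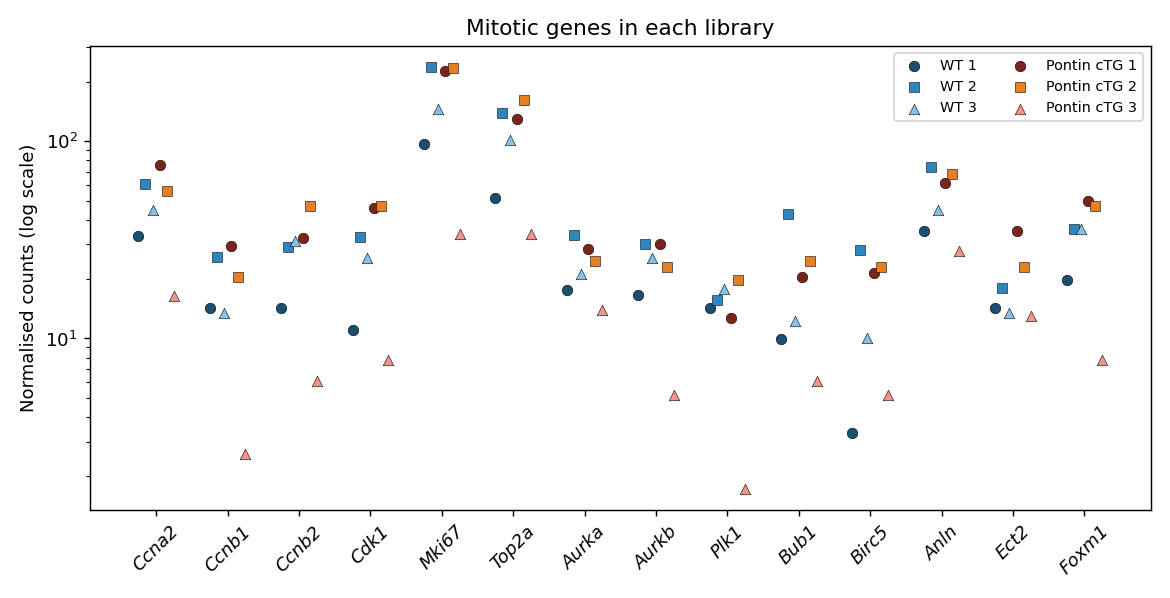
Normalised counts (log axis) of the 14 mitotic genes in the 6 libraries, WT in blue and Pontin cTG in red and orange. The pale triangle of Pontin cTG replicate 3 is the lowest point for 13 of the 14 genes, and the dark circle of WT replicate 1 is among the low points of most.

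Pontin cTG replicate 3 was the lowest of the 6 libraries for 13 of 14 mitotic genes (92.9%), against 17.7% of all genes. It and WT replicate 1 were the 2 lowest libraries for 11 of the 14 (78.6%), against 6.78% of all genes. These libraries were singled out after their values were seen, so the counts are a description. The ratio of the highest to the lowest Pontin cTG library had a median of 5.31 over the mitotic genes (2.04 to 11.4), against 1.42 over all genes, and in WT the medians were 2.01 and 1.25. Low counts widen such ratios, and the 11.4 was Plk1, at 23 against 2 deposited counts. No genes of like level were set beside the 14 mitotic genes. The fold changes were positive for 9 genes and negative for 5, with a median of 0.07, and the median standard error was 0.60 against 0.20 over all genes.

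The sign of the mitotic median depended on which library was left out. Leaving out Pontin cTG replicate 2 gave -0.21, Pontin cTG replicate 1 gave -0.19 when omitted, and omission of WT replicate 1 gave -0.17. The mitotic median rose to 0.52 once Pontin cTG replicate 3 was dropped and to 0.365 once WT replicate 2 was, while omission of WT replicate 3 left it at 0.035. Over the G1 cyclins and CDKs the same values ran from -0.14 to 0.09. None of these fits called a cell cycle gene of the 40.

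**Figure D4:**
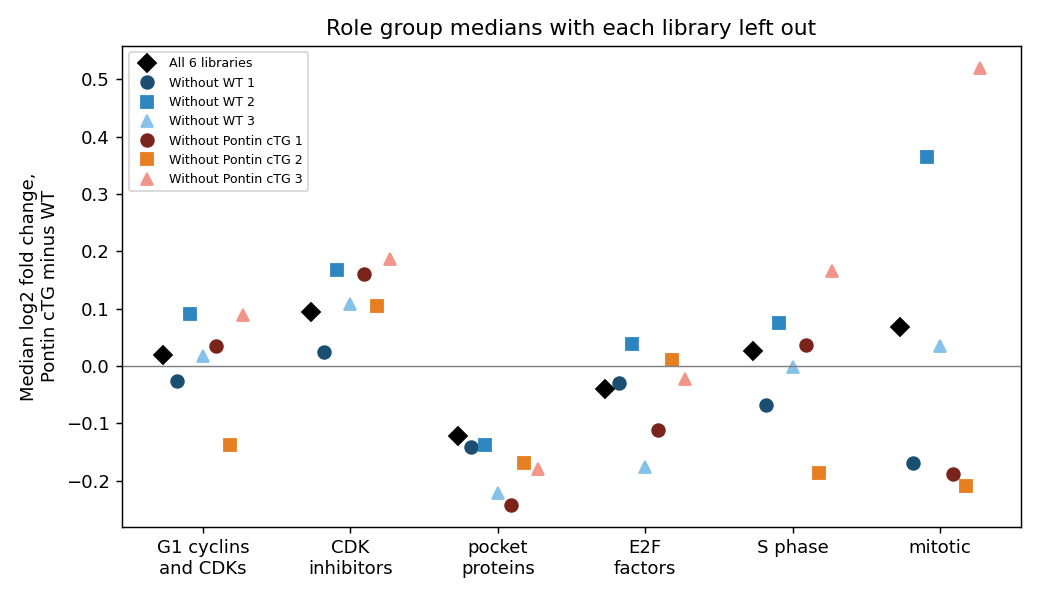
Median log2 fold change, Pontin cTG minus WT, of 6 role groups with all 6 libraries (black) and with each library left out (coloured). The mitotic medians range from -0.21 to 0.52, while those of the pocket proteins stay below 0 and those of the CDK inhibitors above it.

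Marker sums of several cell types, cardiomyocytes among them, moved with the mitotic genes in part. Cardiomyocyte markers summed to 542800, 649000 and 559600 normalised counts in WT and 575100, 624200 and 554900 in Pontin cTG. Their 2 lowest sums were also in WT replicate 1 and Pontin cTG replicate 3, but the ratio between libraries was only 1.2. Myh6 was a large part of the sum (338900 in WT replicate 2), and 2 of the 8 genes were lowest in Pontin cTG replicate 3. Summed macrophage and leukocyte markers were 3599, 6421 and 3868 normalised counts in WT and 3835, 4227 and 3244 in Pontin cTG. They were highest in WT replicate 2 for 6 of 6 genes and lowest in Pontin cTG replicate 3 for 5 of 6. Fibroblast markers summed to 15090, 22950 and 13050 against 14690, 20380 and 12960, with the highest values in both replicates 2. The lowest sum, in Pontin cTG replicate 3, was close to that of WT replicate 3. Of the 6 fibroblast genes, 2 were lowest in Pontin cTG replicate 3. Erythroid markers summed to 13190, 15260 and 22340 against 21220, 19440 and 11700, and were lowest in Pontin cTG replicate 3 for 5 of 5 genes.

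Endothelial markers summed to 12960, 12970 and 13080 in WT and to 12230, 16720 and 11190 in Pontin cTG. Their highest and lowest sums were in the same libraries as those of the mitotic genes, Pontin cTG replicates 2 and 3, and 3 of 6 endothelial genes were lowest in replicate 3. Pontin cTG replicate 1 was near the top for the mitotic sum (798.6) but below every WT heart for the endothelial sum. The WT endothelial sums lay close together, while the WT mitotic sums ran from 352.4 to 803.2. Smooth muscle markers summed to between 2851 and 3582, with 3 of 4 genes lowest in Pontin cTG replicate 3, and pericyte markers to between 13860 and 18000. The lymphocyte markers summed to only 7.811 to 25.71, and Cd3e was at 0 in 3 libraries. The largest ratio between libraries among the other marker sums was 1.98, for macrophages and leukocytes, which is less than the 4.54 of the mitotic genes. No marker gene was called between the groups. The part of cell composition in the mitotic values was not tested.

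**Figure D5:**
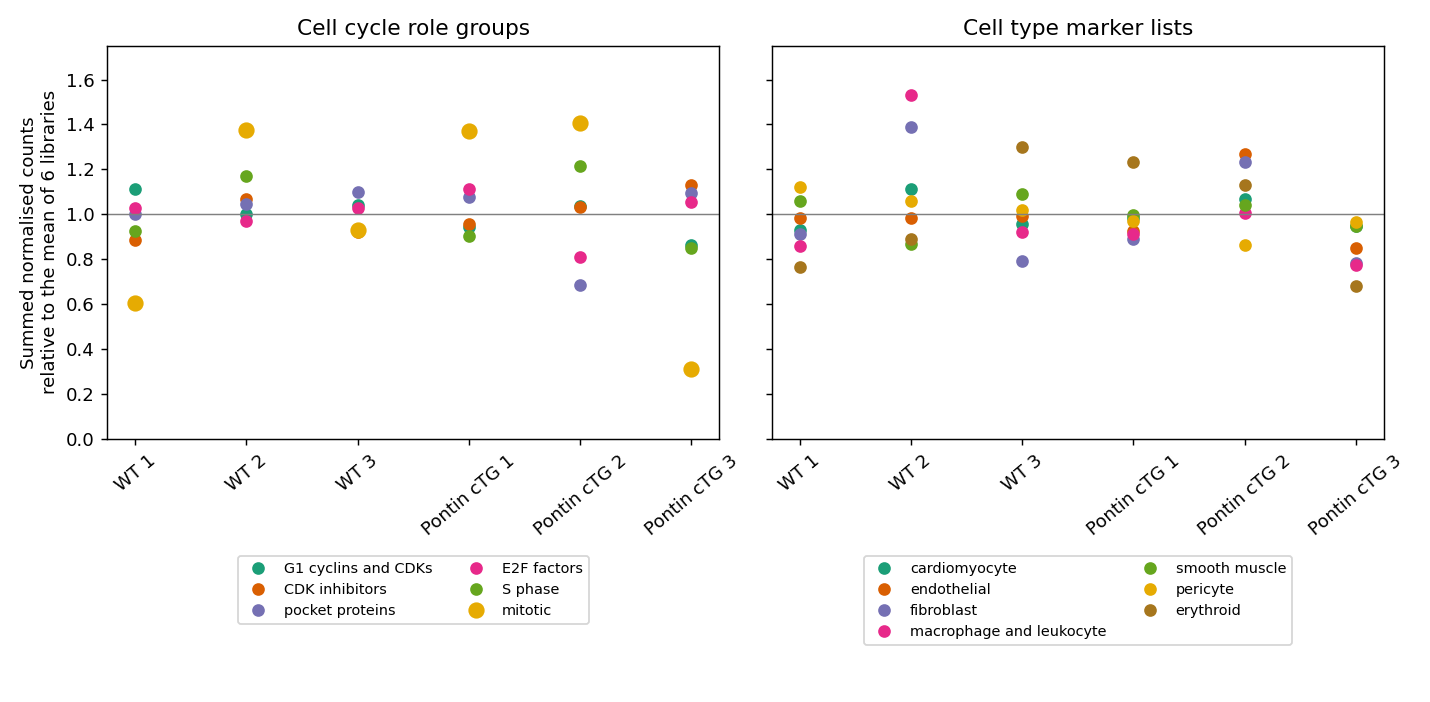
Summed normalised counts per library divided by the mean of the 6 libraries, for 6 cell cycle role groups (left) and 7 marker lists (right, lymphocyte markers not drawn). The mitotic sum, in yellow on the left, is the only role group below 0.5 in any library, in Pontin cTG replicate 3.

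Meis1, a homeobox factor that restrains cardiomyocyte division and favours CDK inhibitor expression, was at 250.0, 249.0 and 244.8 in WT and at 185.5, 225.2 and 291.1 in Pontin cTG. The WT hearts were nearly equal and the Pontin cTG hearts lay on both sides of them (log2 fold change -0.08, standard error 0.17, unadjusted p = 0.647 in edgeR). Pontin cTG replicate 3 had the most Meis1 of the 6 libraries, as it had for 2548 of the 13888 genes tested. It also had the most Cdkn1b. Its Cdkn2c (173.3) was level with Pontin cTG replicate 2 (173.8) and above every WT heart, and its Cdkn2d (175.0) was below all but WT replicate 1.

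A wider list of 88 cell cycle genes outside the 40 gave the same outcome. Of its 76 genes that passed the filter, 0 were called and 0 had an unadjusted p under 0.05 in edgeR. Over all genes tested these shares were 0% and 2.05%. Fold changes were positive for 47 and negative for 29, with a median of 0.06, and the groups did not overlap for 4 genes (5.26%). The sign of this median also turned with the library left out, from -0.03 when Pontin cTG replicate 2 was dropped and -0.00071 for WT replicate 1 to 0.19 for WT replicate 2 and 0.20 for Pontin cTG replicate 3. Cdkn1a (p21), the CDK inhibitor induced by p53, had the smallest p, at 355.7, 328.7 and 495.2 in WT and 1315, 532.6 and 387.2 in Pontin cTG (log2 fold change 0.92, standard error 0.42, unadjusted p = 0.0561 in edgeR). Pontin cTG replicate 1 was the highest for Cdkn1a, and Pontin cTG replicate 3 lay within the WT range.

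Pttg1 (securin), which guards sister chromatids, was at 744.4, 704.5 and 692.0 against 808.4, 820.3 and 904.4, without overlap (log2 fold change 0.24, unadjusted p = 0.0712 in edgeR). It was highest in Pontin cTG replicate 3, unlike the 14 mitotic genes, and so was Cenpf, at 274.6 normalised counts. Pold1, the catalytic subunit of DNA polymerase delta, had a log2 fold change of 0.33 (unadjusted p = 0.0963). On the other side stood Chek1, a checkpoint kinase (-0.75, unadjusted p = 0.199), Wee1, which inhibits CDK1 (-0.21, unadjusted p = 0.279), and Kif20a, a kinesin of cytokinesis (-0.37, unadjusted p = 0.357). Of the 31 other mitosis genes tested, Pontin cTG replicate 3 was the lowest library for 18 (58.1%), and of 22 other S phase genes for 10 (45.5%). The share over all genes tested was 17.7%. For these 31 genes the ratio of the highest to the lowest Pontin cTG library had a median of 2.9, against 5.31 for the 14. In WT the medians were 2.23 and 2.01.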

How the data were processed

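Total RNA of 6 hearts was sequenced. The deposited counts are the authors' reads per gene, not normalised. The submitters' processing notes name fastp, HISAT2, featureCounts, DESeq2 and GRCm39, whereas the methods of the study name Trimmomatic, STAR and mm10. Starts of 0 of the 40 genes lay within 10 bases of the GRCm38 annotation, so the table is not on that build, and no gene coordinate is printed. Only the RefSeq promoters carry coordinates.

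Groups and replicate numbers came from the sample titles. Genes were filtered with filterByExpr (minimum count 10), scaled by TMM and tested with edgeR 4.0.16 (quasi-likelihood, Benjamini-Hochberg over 13888 genes) in R 4.3.3, with DESeq2 1.42.0 and limma 3.58.1 as alternatives. Normalised counts are counts at the mean scaled library size, 14086844. No covariate was used, and replicate numbers were not treated as pairs. With 3 against 3, the smallest exact p is 0.1. The code was tested on simulated counts of 13696 genes. There edgeR made 17 false calls beside its calls of 58 genes changed 2-fold and 91 changed 4-fold. The 40 genes, their roles, the wider list and markers were chosen with earlier results of these data known. Statistics were given for the 3 smallest p in each direction and the largest fold change per role, also for the wider list by smallest p. The titles call the libraries biological replicates. The methods state that 1 outlier was excluded after principal component analysis, without naming the experiment, and all 6 libraries were used here.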

Additional observations from a re-analysis of the deposited data

How the results depend on the processing

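Counts of called cell cycle genes stayed at 0 under each of the 15 alternatives that gave a value, for the 40 genes and the wider list. With this depth and 3 hearts per group, differences of 2-fold or less were poorly covered. Over all genes, calls rose from 0 to 1 with DESeq2 and to 3 with no filter on low counts, with limma-voom and without Pontin cTG replicate 2. Genes of the 40 at an unadjusted p under 0.05 went from 1 to 2 with at least 10 counts in every library (which keeps 30 of the 40), to 2 with protein-coding genes only, and to 4 with limma-voom, and ran from 0 (without WT replicate 1 or Pontin cTG replicate 1) to 2 with 1 library left out. The share of all genes at that level was not counted for the alternative fits. Scaling by library size alone shifted the median of all genes to 0.0313.

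Leaving out each library gave medians of -0.242 to -0.137 for the pocket proteins, -0.187 to 0.165 for S phase, and 0.0238 to 0.187 for the CDK inhibitors. Deviations of same-numbered libraries correlated at 0.077, 0.43 and 0.19. Of the 6 libraries, 2 correlated best with their own number, namely replicate 2 of each group. Whether same-numbered samples share more than a number was not tested. The replicate block (replicate number as a factor) kept genes of the 40 called at 0 and those at an unadjusted p under 0.05 at 1, with a mitotic median of -0.0145 and an S phase median of -0.0128. The count of mitotic genes lowest in Pontin cTG replicate 3, chosen after seeing the data, was 13 with library size alone and when Pontin cTG replicate 2 was dropped, and 14 when WT replicate 1 was.

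The sign of a fold change turned in 69 of 590 single-gene values, none past the threshold, and never in 13 genes. With library size alone these were Cdk2 0.0189, E2f2 0.012 and E2f6 0.00344. With the replicate block they were Mcm5 -0.0128, Ccna2 -0.0388 and Mki67 -0.168. With limma-voom they were Rbl2 0.0941, E2f2 0.176, E2f6 0.093, Mcm2 -0.041, Mcm5 -0.13, Ccnb2 -0.0424, Mki67 -0.0186, Aurka 0.128 and Bub1 0.13. The cause was not tested. With 1 library left out, the log2 fold changes of the 27 genes that turned were Cdk6 -0.0918 to 0.218, Cdk2 -0.211 to 0.229, Cdkn1b -0.124 to 0.161, Cdkn2d -0.0544 to 0.187, Rbl1 -0.259 to 0.057, Rbl2 -0.332 to 0.189, E2f2 -0.718 to 0.322, E2f4 -0.0312 to 0.163, E2f5 -0.169 to 0.117, E2f6 -0.0998 to 0.132, E2f7 -0.377 to 0.247, Mcm2 -0.126 to 0.165, Mcm5 -0.412 to 0.312, Pcna -0.187 to 0.0568, Ccna2 -0.341 to 0.513, Ccnb1 -0.604 to 0.476, Ccnb2 -0.403 to 0.672, Mki67 -0.314 to 0.528, Top2a -0.274 to 0.577, Aurka -0.308 to 0.195, Aurkb -0.753 to 0.14, Plk1 -1.17 to 0.027, Bub1 -0.718 to 0.617, Birc5 -0.195 to 1.29, Anln -0.211 to 0.392, Foxm1 -0.137 to 0.666 and Meis1 -0.27 to 0.0652.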
